A study of Mus musculus with 6 samples.

Results

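In RNA-seq of the mouse paraventricular nucleus of the hypothalamus (PVH), a centre of stress hormone output and feeding control, 10 genes of the circadian clock were examined: Clock, Arntl, Per1, Per2, Per3, Cry1, Cry2, Nr1d1, Nr1d2 and Dbp. They were chosen by gene symbol from the deposited gene table, where all 10 were found among 35148 genes, and all 10 passed the filter on low counts that left 20865 genes for testing. Both groups of libraries came from Ruvbl2 fl/fl mice, whose Ruvbl2 alleles are flanked by loxP sites, and tissue was taken 8 weeks after a virus was delivered to the PVH. The adeno-associated virus AAV2-Cre-GFP, which delivers Cre recombinase together with a fluorescent reporter, was used for 3 libraries, and AAV2-GFP, which lacks Cre, for the other 3. Cre acts only in cells that the virus reaches, so tissue of the first group still holds cells with intact alleles. The labels do not name the promoter that drives Cre, and the age and sex of the mice, the number of animals per library and the hour of collection were not stated in the labels. Without a statement that each library is a separate animal, p-values measure the spread between these libraries.

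The clock of mammalian cells is a feedback loop of transcription. CLOCK and BMAL1 (the product of Arntl) bind E-boxes and switch on Per, Cry, Nr1d1, Nr1d2 and Dbp; PER and CRY proteins then block CLOCK and BMAL1, while the NR1D proteins (REV-ERBs) repress Arntl through ROR elements and DBP acts on D-boxes. In mouse tissues the transcripts peak in order, with Nr1d1 and Dbp near midday, Per3 soon after them, Per1 and Per2 near dusk, and Cry1 and Arntl in the night, while Clock and Cry2 vary little. Per1 and Per2 can also be induced directly, by neuronal activity through CREB and by glucocorticoids.

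Total counts ran from 41890769 to 54702785 per library. Ruvbl2, the targeted gene, overlapped between the groups: it stood at 9.53, 9.10 and 9.51 FPKM (fragments per kilobase, scaled to depth) in the libraries labelled AAV2-Cre-GFP, against 9.90, 7.36 and 8.72 FPKM in those labelled AAV2-GFP (edgeR adjusted p = 0.773). The libraries are therefore called Cre-labelled and GFP-labelled, and directions refer to those labels. PVH markers were present in every library, with Sim1 at 1.19 to 1.41 FPKM in Cre-labelled and 1.16 to 2.67 FPKM in GFP-labelled libraries, and Oxt at 56.2 to 428 against 184 to 587 FPKM. Avp ran from 48.9 to 138 FPKM in Cre-labelled and 57.5 to 188 FPKM in GFP-labelled libraries, and Crh from 3.55 to 4.69 against 6.07 to 9.10 FPKM. Some libraries held transcripts typical of other organs. 6 kidney genes together reached 448 and 491 CPM (counts scaled to a common library total) in Cre-labelled libraries 2 and 3, against at most 47.7 CPM elsewhere. Likewise, 4 skeletal muscle genes reached 147 CPM in Cre-labelled library 3, against at most 11.3 CPM elsewhere, and 4 testis genes 269 CPM in GFP-labelled library 1, against at most 1.36 CPM elsewhere. The ribosomal RNA model CT010467 stood at 7301 to 17633 CPM in Cre-labelled and at 2072 to 2219 CPM in GFP-labelled libraries.

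Per2 was the clock gene with the largest difference, higher in every Cre-labelled library, whereas Nr1d1 and Dbp were lower in every Cre-labelled library and Per3 was higher by a smaller amount. Clock, Arntl, Cry1, Cry2, Per1 and Nr1d2 overlapped between the groups in normalised counts. In tissue RNA, fewer cells of a type and less RNA per cell cannot be told apart. By edgeR's quasi-likelihood test, 0 of the 10 passed an adjusted p of 0.05, beside 0% of all tested genes passing as higher and 0.00959% as lower. Before adjustment, p was under 0.05 for 2 members that lay higher (Per2 and Per3) and 2 that lay lower (Nr1d1 and Dbp), where 8.11% of all genes were higher and 9.11% lower at that level. The groups did not overlap in normalised counts for the same 4 genes, beside 11.1% of all genes lying higher and 11.7% lower without overlap. DESeq2, a second count test, called Per2 as higher and Nr1d1 as lower at an adjusted p of 0.05, where it called 3.12% of all genes higher and 4.91% lower. The median log2 difference over the 10 members was -0.017, beside -0.0058 over all tested genes. Of the members 5 lay higher and 5 lower, as did 49% and 51% of all genes.

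**Figure D1:**
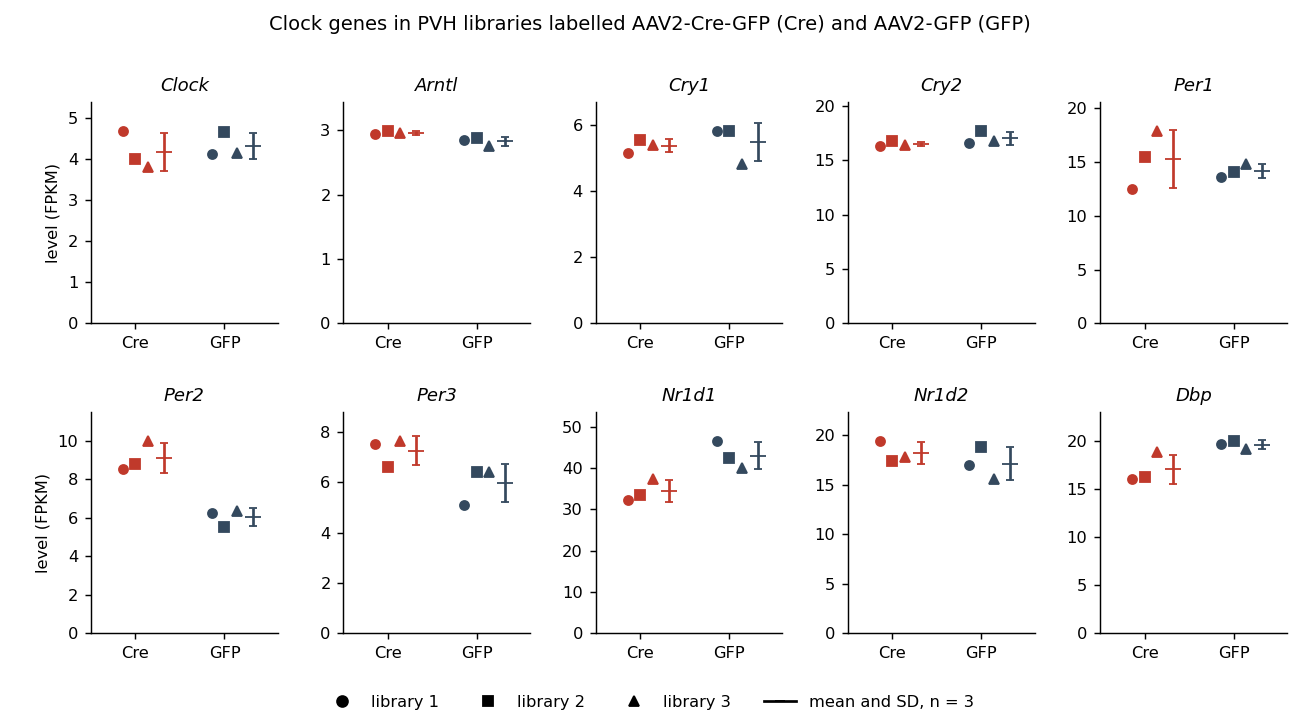
Levels of the 10 clock genes in FPKM (vertical axes start at 0) in each library, with Cre-labelled libraries on the left and GFP-labelled libraries on the right of each panel; symbols mark library numbers and the bar the mean and SD (n = 3). Per2 and Per3 lie higher and Nr1d1 and Dbp lower in all 3 Cre-labelled libraries, and the values of Clock, Cry1, Cry2, Per1 and Nr1d2 overlap.

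The RefSeq promoter windows (GRCm38.p6) of members are shown here because the loop acts through E-boxes, D-boxes and ROR elements. The arms compared below were not drawn from matches in these windows. Windows of 250 bases before to 50 after a start were found for 9 of the 10 members, 13 windows in all; Per2 had none. Both strands were searched for the E-box CACGTG, the D-box TTANGTAA, the ROR element TAGGTCA and the CRE TGACGTCA, which are held by 7.15%, 2.32%, 2.61% and 1.79% of the 32851 windows in the table. Each sequence below runs 5′ to 3′ on the gene's strand, in lower case with matches in capitals. Printed are Per3 with 2 D-boxes, Per1 and Cry1 with an E-box each, and Nr1d1 and Dbp, the members that were lower without overlap, whose windows hold no match.
Per3 (chr4:151044616-151044915, minus strand): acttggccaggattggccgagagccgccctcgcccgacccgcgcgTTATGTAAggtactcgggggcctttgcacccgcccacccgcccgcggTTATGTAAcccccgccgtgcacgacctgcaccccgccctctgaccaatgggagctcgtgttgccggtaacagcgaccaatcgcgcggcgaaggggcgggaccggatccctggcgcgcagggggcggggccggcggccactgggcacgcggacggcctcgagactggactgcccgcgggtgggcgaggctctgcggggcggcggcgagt
Per1 (chr11:69098699-69098998, plus strand): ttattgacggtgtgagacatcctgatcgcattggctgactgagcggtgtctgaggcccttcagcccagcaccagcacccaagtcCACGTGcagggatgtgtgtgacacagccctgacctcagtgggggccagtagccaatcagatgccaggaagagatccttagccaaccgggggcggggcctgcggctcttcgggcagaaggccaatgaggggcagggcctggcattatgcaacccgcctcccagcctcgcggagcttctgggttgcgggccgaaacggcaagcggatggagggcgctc
Cry1 (chr10:85185005-85185304, minus strand): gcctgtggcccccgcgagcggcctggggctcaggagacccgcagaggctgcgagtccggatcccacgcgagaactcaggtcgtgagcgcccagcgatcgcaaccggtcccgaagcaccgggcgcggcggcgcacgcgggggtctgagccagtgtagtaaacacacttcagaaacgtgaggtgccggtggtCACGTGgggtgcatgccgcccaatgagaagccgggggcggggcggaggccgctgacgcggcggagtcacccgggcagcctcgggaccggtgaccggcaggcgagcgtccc
Nr1d1 (chr11:98775328-98775627, minus strand): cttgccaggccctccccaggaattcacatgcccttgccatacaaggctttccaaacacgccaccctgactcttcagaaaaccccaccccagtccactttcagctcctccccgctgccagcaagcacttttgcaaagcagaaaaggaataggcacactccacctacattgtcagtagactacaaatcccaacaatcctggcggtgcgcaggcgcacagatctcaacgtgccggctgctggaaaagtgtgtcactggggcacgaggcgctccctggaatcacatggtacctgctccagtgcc
Dbp (chr7:45704997-45705296, plus strand): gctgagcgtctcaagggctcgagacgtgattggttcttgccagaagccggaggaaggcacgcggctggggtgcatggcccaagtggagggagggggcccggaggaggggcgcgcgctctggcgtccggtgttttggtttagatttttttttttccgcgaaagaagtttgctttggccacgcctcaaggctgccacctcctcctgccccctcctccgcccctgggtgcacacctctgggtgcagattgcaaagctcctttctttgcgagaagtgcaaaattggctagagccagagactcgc
Per3 carries TTATGTAA at bases 46 and 93 of its window, the E-box of Per1 starts at base 85 and that of Cry1 at base 191. One of the 2 Arntl windows holds TAGGTCA at base 281, and the other 9 windows, those of Nr1d1 and Dbp among them, hold none of the 4 motifs. A match is a string of letters in a short window and not a measured binding site, and elements that lie outside these windows were not searched.

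Among activators of the loop, Clock and Arntl showed no difference beyond the spread. Clock, the histone acetyltransferase that pairs with BMAL1, stood at 4.69, 4.01 and 3.81 FPKM in Cre-labelled libraries 1 to 3, against 4.12, 4.67 and 4.15 FPKM in GFP-labelled libraries 1 to 3. The groups overlapped, and the log2 difference was -0.089 ± 0.087 (SE; 95% interval -0.29 to 0.11; edgeR adjusted p = 0.649). Arntl stood at 2.94, 2.99 and 2.95 FPKM in Cre-labelled and at 2.85, 2.88 and 2.75 FPKM in GFP-labelled libraries. The FPKM values of Arntl lay higher without overlap, which held for 14.1% of all tested genes (8.8% lay lower without overlap), but in normalised counts the groups overlapped and the log2 difference was 0.030 ± 0.073 (SE; 95% interval -0.14 to 0.20; edgeR adjusted p = 0.878). The intervals leave room for a fall of Clock by up to 18.2% and a gain of Arntl by up to 14.8%. Arntl was the least abundant of the 10 members per length in both groups.

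The 3 Period genes, which encode the repressors that accumulate through the day, did not differ alike between the groups. Per2 (ENSMUSG00000055866, minus strand of chromosome 1 at 91415982 to 91459324, GRCm38) stood at 8.54, 8.78 and 10.01 FPKM in Cre-labelled libraries, against 6.25, 5.51 and 6.35 FPKM in GFP-labelled libraries. The lowest Cre-labelled library lay well above the highest GFP-labelled one. The means were 9.11 ± 0.786 FPKM in Cre-labelled and 6.04 ± 0.463 FPKM in GFP-labelled libraries (SD, n = 3 each), a 1.47-fold difference with a log2 value of 0.56 ± 0.092 (SE; 95% interval 0.34 to 0.77; edgeR adjusted p = 0.0705, DESeq2 adjusted p = 3.45e-05). Its unadjusted p of 0.000329 ranked 94 of 20865 genes in edgeR. Leaving out Cre-labelled library 1 gave an edgeR adjusted p of 0.0373 and a log2 difference of 0.62, and leaving out any other single library gave differences between 0.49 and 0.60 with adjusted p between 0.10 and 0.301.

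Per3 (ENSMUSG00000028957, minus strand of chromosome 4 at 151003652 to 151044665, GRCm38) stood at 7.50, 6.60 and 7.64 FPKM in Cre-labelled libraries, against 5.09, 6.39 and 6.39 FPKM in GFP-labelled libraries. The groups did not overlap, although Cre-labelled library 2 exceeded 2 GFP-labelled libraries by little. The log2 difference was 0.24 ± 0.10 (SE; 95% interval 0.010 to 0.48; edgeR adjusted p = 0.273), and it was 0.14 without GFP-labelled library 1, which was the lowest of its group. Camta1, which encodes a calmodulin-binding transcription activator, spans the whole of Per3 on the same strand, so reads from its introns could be counted for Per3. Camta1 itself lay lower in all Cre-labelled libraries, at 23.2 to 25.3 FPKM against 26.3 to 28.2 FPKM (log2 difference -0.22 ± 0.052, SE; edgeR adjusted p = 0.116). Per1 (ENSMUSG00000020893, plus strand of chromosome 11 at 69095217 to 69109960) stood at 12.5, 15.4 and 17.9 FPKM in Cre-labelled libraries, against 13.6, 14.1 and 14.9 FPKM in GFP-labelled libraries. Cre-labelled libraries held both its lowest and its highest value. The SD of Per1 was 2.69 FPKM in Cre-labelled and 0.651 FPKM in GFP-labelled libraries, and the log2 difference of 0.074 ± 0.13 (SE; 95% interval -0.22 to 0.36; edgeR adjusted p = 0.812) turned to -0.042 without Cre-labelled library 3.

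Within each library the ratio of Per2 to Per1, both in FPKM, was 0.682, 0.569 and 0.559 in Cre-labelled and 0.461, 0.391 and 0.428 in GFP-labelled libraries. Per2 was thus higher relative to Per1 in every Cre-labelled library, whichever way Per1 itself lay. Per2 alone already separated the groups, and this ratio was chosen after its values were seen.

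The Cryptochromes, partners of the PER proteins in repression, overlapped between the groups. Cry1 (ENSMUSG00000020038, minus strand of chromosome 10 at 85131700 to 85185064, GRCm38) stood at 5.18, 5.57 and 5.42 FPKM in Cre-labelled libraries, against 5.82, 5.84 and 4.82 FPKM in GFP-labelled libraries. Its GFP-labelled libraries spanned the whole Cre-labelled range, and the log2 difference was -0.063 ± 0.10 (SE; 95% interval -0.30 to 0.18; edgeR adjusted p = 0.805). Cry2 stood at 16.3, 16.8 and 16.5 FPKM in Cre-labelled and at 16.6, 17.7 and 16.8 FPKM in GFP-labelled libraries. It had the smallest standard error of the 10 members, with a log2 difference of -0.081 ± 0.053 (SE; 95% interval -0.20 to 0.042; edgeR adjusted p = 0.483).

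Nr1d1 and Nr1d2 encode the paired nuclear receptors REV-ERBα and REV-ERBβ, which repress Arntl and bind heme. Nr1d1 (ENSMUSG00000020889, minus strand of chromosome 11 at 98767932 to 98775333, GRCm38) stood at 32.3, 33.5 and 37.4 FPKM in Cre-labelled libraries, against 46.6, 42.4 and 40.0 FPKM in GFP-labelled libraries. The highest Cre-labelled value fell short of the lowest GFP-labelled value. The means were 34.4 ± 2.64 and 43.0 ± 3.33 FPKM (Cre-labelled and GFP-labelled, SD, n = 3 each), and the log2 difference was -0.36 ± 0.080 (SE; 95% interval -0.54 to -0.17; edgeR adjusted p = 0.104, DESeq2 adjusted p = 0.0019). With 1 library left out it ran from -0.41 to -0.29, and its unadjusted p ranked 449 of 20865 genes. Thra, which encodes a thyroid hormone receptor, overlaps the last 1075 bases of Nr1d1 on the opposite strand in GENCODE M21. In the deposited table Thra ends at 98765111, before Nr1d1 begins, so the table's own gene models do not overlap. Thra stood at 87.6 to 89.9 FPKM in Cre-labelled and 80.5 to 90.9 FPKM in GFP-labelled libraries (log2 difference 0.027 ± 0.061, SE; edgeR adjusted p = 0.867), so it was not lower together with Nr1d1.

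Nr1d2 (ENSMUSG00000021775, minus strand of chromosome 14 at 18204054 to 18239127) stood at 19.4, 17.4 and 17.8 FPKM in Cre-labelled libraries, against 16.9, 18.8 and 15.5 FPKM in GFP-labelled libraries. The groups overlapped, and the log2 difference was 0.053 ± 0.076 (SE; 95% interval -0.12 to 0.23; edgeR adjusted p = 0.774), so its interval does not reach the estimate for Nr1d1. The ratio of Nr1d1 to Nr1d2 in FPKM was 1.67, 1.93 and 2.11 in Cre-labelled and 2.75, 2.25 and 2.58 in GFP-labelled libraries. Nr1d1 was therefore lower relative to its paralog in every Cre-labelled library. Nr1d1 alone already separated the groups, and this ratio was chosen after its values were seen.

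Dbp encodes a PAR bZIP transcription factor and is a direct output of CLOCK and BMAL1. The gene (ENSMUSG00000059824, plus strand of chromosome 7 at 45705088 to 45710203, GRCm38) lies 266992 bases from Ruvbl2, whose floxed alleles both groups carry. Its level was 16.1, 16.3 and 18.9 FPKM in Cre-labelled libraries, against 19.7, 20.05 and 19.2 FPKM in GFP-labelled libraries. The groups did not overlap, and Cre-labelled library 3 came close to the lowest GFP-labelled library. Means were 17.1 ± 1.53 and 19.6 ± 0.445 FPKM (Cre-labelled and GFP-labelled, SD, n = 3 each), with a log2 difference of -0.24 ± 0.077 (SE; 95% interval -0.41 to -0.060; edgeR adjusted p = 0.186, DESeq2 adjusted p = 0.0963). Sphk2, a sphingosine kinase gene on the opposite strand, overlaps the last 737 bases of Dbp and stood at 6.48 to 6.89 FPKM in Cre-labelled and 5.64 to 6.32 FPKM in GFP-labelled libraries. In a two-sided exact permutation test on FPKM, p was 0.1 for Per2, Per3, Arntl, Nr1d1 and Dbp. That is the smallest p that 3 libraries against 3 allow and restates that FPKM did not overlap, as was so for 14.1% of all genes on the higher and 8.8% on the lower side.

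Ordered by mean FPKM, Nr1d1 led in both groups. In Cre-labelled libraries Nr1d2, Dbp, Cry2 and Per1 followed with overlapping values, and then Per2, Per3, Cry1, Clock and Arntl, each below all values of the gene before it. In GFP-labelled libraries the order was Dbp, Nr1d2, Cry2, Per1, Per2, Per3, Cry1, Clock and Arntl, where Nr1d2 overlapped Cry2 and the values of Per2, Per3 and Cry1 overlapped each other. Per2, Per3 and Cry1 therefore formed 1 range in GFP-labelled libraries and 3 separate ranges in Cre-labelled ones.

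**Figure D2:**
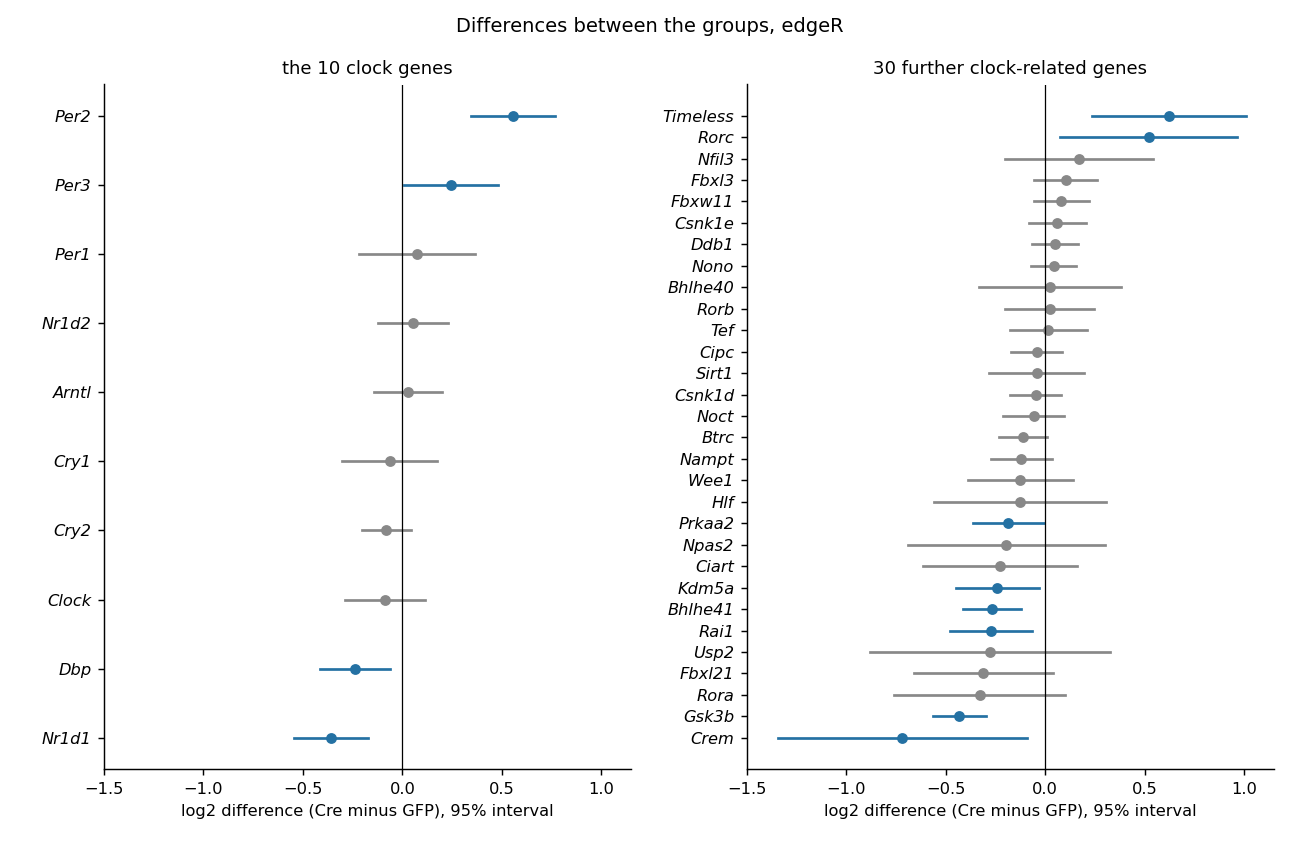
Log2 differences (Cre-labelled minus GFP-labelled) with 95% intervals from edgeR for the 10 clock genes (left) and 30 further clock-related genes (right); blue marks intervals that do not include 0, before adjustment for the number of genes tested. Per2 lies at 0.56 and Nr1d1 at -0.36, and no gene shown passed an adjusted p of 0.05.

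Opposing arms of the clock were set against each other, since a different hour of collection could give more of one arm and less of the other. The day arm was Per1, Per2, Per3, Nr1d1, Nr1d2 and Dbp, and the night arm Arntl, Clock and Cry1; each was averaged as log2 normalised counts around its mean over the 6 libraries. The day arm stood at -0.061, -0.004 and 0.145 in Cre-labelled libraries 1 to 3, against -0.048, -0.011 and -0.021 in GFP-labelled libraries 1 to 3. The night arm stood at -0.007, 0.004 and -0.058 in Cre-labelled libraries, against 0.030, 0.093 and -0.063 in GFP-labelled libraries. Both arms overlapped between the groups. Day minus night was -0.054, -0.008 and 0.203 in Cre-labelled and -0.078, -0.105 and 0.042 in GFP-labelled libraries, a difference between the groups of 0.094 with a pooled SD between libraries of 0.11. Without Per1 and Per2 the difference was -0.033, and with Arntl, Npas2 and Nfil3 as the night arm it was 0.046.

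The day arm averages members that lay in opposite directions, and the night arm includes Clock, which varies little, so the overlap of the arms does not bear on whether the hour differed. Within the day arm, Nr1d1 and Dbp were lower in Cre-labelled libraries and Per2 and Per3 higher. Per1, which peaks near Per2, and Nr1d2, the paralog of Nr1d1, overlapped between the groups. The ratio of Per2 to Nr1d1 in FPKM was 0.264, 0.262 and 0.268 in Cre-labelled libraries, against 0.134, 0.130 and 0.159 in GFP-labelled libraries. The ratio of Per3 to Dbp was 0.466, 0.404 and 0.405 against 0.258, 0.319 and 0.333. Relative to Arntl, Dbp stood at ratios of 5.48, 5.46 and 6.39 in Cre-labelled and 6.91, 6.96 and 6.97 in GFP-labelled libraries, and Nr1d1 at 11.0, 11.2 and 12.7 against 16.3, 14.7 and 14.6. Each of these ratios separated the groups, as it had to, since its 2 genes already lay apart in FPKM in opposite directions. The ratios add no evidence to the single genes, and they were chosen with the values of their members known. The hour of collection was not stated, and its part in these differences was not tested.

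**Figure D3:**
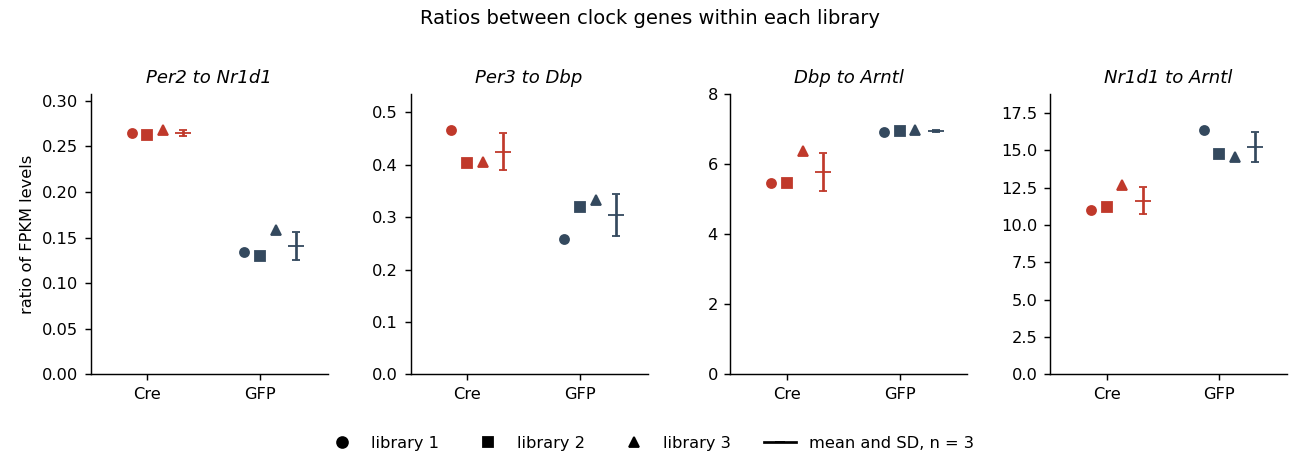
Ratios between pairs of clock genes within each library, from deposited FPKM (vertical axes start at 0), with Cre-labelled libraries on the left and GFP-labelled libraries on the right; symbols mark library numbers and the bar the mean and SD (n = 3). The ratio of Per2 to Nr1d1 lies between 0.262 and 0.268 in Cre-labelled and between 0.130 and 0.159 in GFP-labelled libraries. Each ratio pairs genes whose FPKM already lay apart in opposite directions.

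Of a list of 30 further clock-related genes (regulators of the loop, kinases and ubiquitin ligases that act on its proteins, and rhythmic outputs), 0 passed in edgeR at an adjusted p of 0.05. Before adjustment, p was under 0.05 for 2 genes that lay higher and 6 that lay lower. At that level 8.11% of all genes were higher and 9.11% lower. DESeq2 called 0 as higher and 2 as lower, where it called 3.12% of all genes higher and 4.91% lower. In all, 11 of the 30 lay higher and 19 lower, with a median log2 difference of -0.084. The genes with the smallest p were Gsk3b, Bhlhe41, Timeless and Rai1. Gsk3b, a kinase that phosphorylates clock proteins among many others, stood at 19.9, 20.3 and 19.5 FPKM in Cre-labelled libraries, against 27.6, 26.4 and 24.5 FPKM in GFP-labelled libraries (log2 difference -0.43 ± 0.058, SE; edgeR adjusted p = 0.0705). Bhlhe41, the repressor DEC2 that competes for E-boxes, stood at 7.65, 8.12 and 8.07 FPKM against 9.69, 8.96 and 9.33 FPKM (log2 difference -0.27 ± 0.063, SE; edgeR adjusted p = 0.114). Both were lower in every Cre-labelled library and both were called by DESeq2. Timeless, a replication fork protein related to a fly clock gene, stood at 0.858, 0.958 and 0.993 FPKM in Cre-labelled libraries, against 0.603, 0.594 and 0.570 FPKM in GFP-labelled libraries (edgeR adjusted p = 0.140), and Rai1, a chromatin protein that acts on Clock, had a log2 difference of -0.27 ± 0.090 (SE; edgeR adjusted p = 0.190).

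Relatives that share the rhythm of the members did not separate the groups. Ciart, an E-box repressor that cycles with Nr1d1 and Dbp, stood at 4.04, 4.74 and 3.76 FPKM in Cre-labelled libraries, against 3.89, 5.47 and 4.94 FPKM in GFP-labelled libraries (edgeR adjusted p = 0.531). Tef and Hlf, the PAR bZIP relatives of Dbp, had log2 differences of 0.015 ± 0.084 and -0.13 ± 0.19 (SE; edgeR adjusted p = 0.953 and 0.780). Hlf ran from 13.1 to 18.5 FPKM in Cre-labelled and from 13.95 to 22.1 FPKM in GFP-labelled libraries. Npas2, which can stand in for Clock, differed by -0.20 ± 0.21, Nfil3, which opposes DBP at D-boxes, by 0.17 ± 0.16, and Bhlhe40, the repressor DEC1, by 0.023 ± 0.15 on the log2 scale (SE; edgeR adjusted p = 0.689, 0.633 and 0.960). The 95% interval of Ciart, from -0.62 to 0.16, includes the estimates for Nr1d1 and Dbp.

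Per1 and Per2 were set beside genes that the same stimuli induce. All 13 immediate early genes lay higher in Cre-labelled libraries, with a median log2 difference of 0.63. In edgeR 0 passed after adjustment and 7 had an unadjusted p under 0.05, where 8.11% of all genes were higher at that level. DESeq2 called 3, where it called 3.12% of all genes higher. Junb, a subunit of AP-1, stood at 13.5, 18.8 and 22.9 FPKM in Cre-labelled libraries, against 6.08, 8.68 and 9.44 FPKM in GFP-labelled libraries (edgeR adjusted p = 0.0850). Npas4, an activity-dependent factor of neurons, stood at 4.34, 3.73 and 3.51 FPKM against 2.59, 2.91 and 2.83 FPKM (edgeR adjusted p = 0.136). Summed over the list, the level was 321, 449 and 568 CPM in Cre-labelled libraries and 229, 293 and 312 CPM in GFP-labelled libraries. In this sum library 1 was the lowest and library 3 the highest of the Cre-labelled libraries, as in Per1, Per2, Nr1d1 and Dbp, whereas Npas4 had the opposite order. Among GFP-labelled libraries Per1 followed the sum, Per2 and Dbp did not, and Nr1d1 had the opposite order. How often genes at large share such an order of 3 libraries was not examined, and a link with the clock genes was not tested.

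Of 13 glucocorticoid-induced genes, 11 lay higher, with a median log2 difference of 0.31. In edgeR 0 passed after adjustment and 4 had an unadjusted p under 0.05, beside 8.11% of all genes that were higher at that level. DESeq2 called the same number, beside 3.12% of all genes called higher. Tsc22d3, the glucocorticoid-induced leucine zipper, stood at 19.9, 18.3 and 19.96 FPKM in Cre-labelled libraries, against 13.3, 13.3 and 14.3 FPKM in GFP-labelled libraries (log2 difference 0.47 ± 0.060, SE; edgeR adjusted p = 0.0694). Cdkn1a, the cell cycle inhibitor p21, stood at 3.31, 3.52 and 2.74 FPKM against 1.64, 1.64 and 1.66 FPKM (edgeR adjusted p = 0.0705). The list summed to 581, 594 and 659 CPM in Cre-labelled and 464, 455 and 532 CPM in GFP-labelled libraries, without overlap. Klf9 and Ddit4 were the 2 members of the list that lay lower, with log2 differences of -0.047 and -0.038. The 4 genes with an unadjusted p under 0.05 were Tsc22d3, Cdkn1a, Mt2 and Mt1. Fkbp5, Sgk1 and Zbtb16 differed by only 0.13, 0.22 and 0.045 on the log2 scale (edgeR adjusted p = 0.499, 0.513 and 0.956). Among Cre-labelled libraries Tsc22d3 and Cdkn1a did not follow the order of Per2. The part of these differences in that of Per2 was not tested. Of 8 temperature-linked genes, 4 lay higher and 4 lower; Cirbp, a cold-inducible RNA-binding protein, stood at 25.3 to 31.1 FPKM in Cre-labelled and 30.1 to 33.2 FPKM in GFP-labelled libraries (edgeR adjusted p = 0.245), and Hspa1b, a heat shock protein, at 4.20 to 6.21 against 2.91 to 4.21 FPKM (edgeR adjusted p = 0.278).

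**Figure D4:**
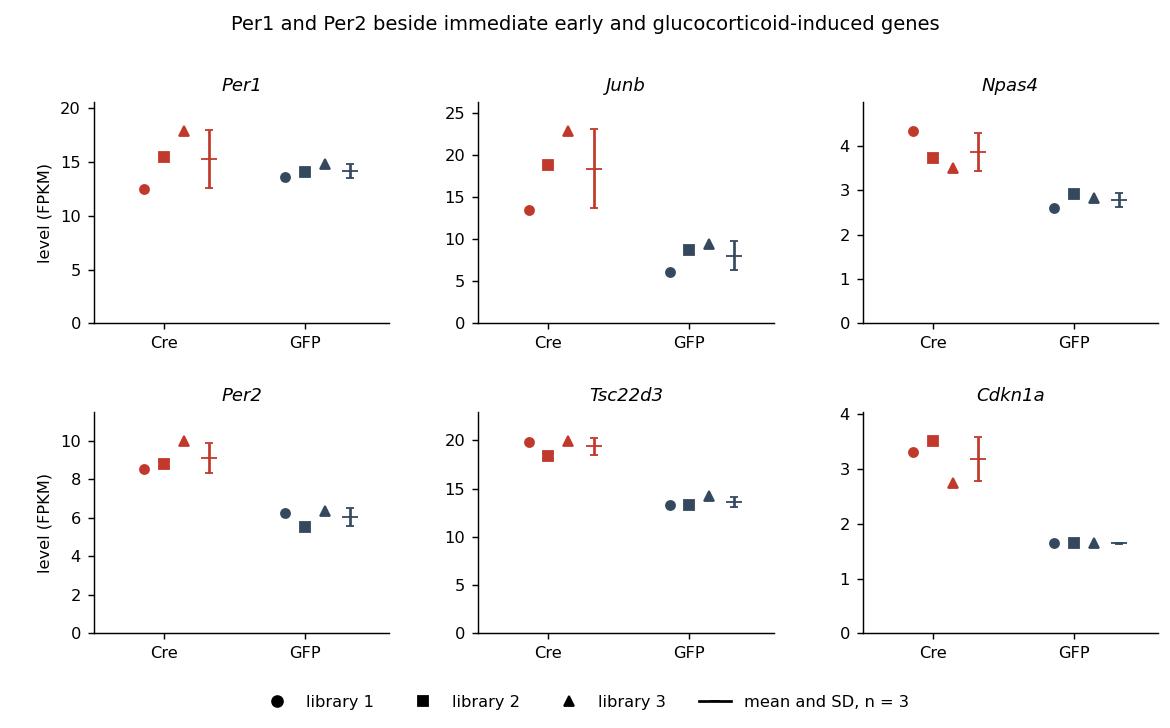
Per1 and Per2 (left column) beside the 2 immediate early genes (Junb and Npas4, top) and the 2 glucocorticoid-induced genes (Tsc22d3 and Cdkn1a, bottom) with the smallest p of their lists, in FPKM (vertical axes start at 0); Cre-labelled libraries are on the left of each panel, symbols mark library numbers and the bar the mean and SD (n = 3). All but Per1 lie higher in every Cre-labelled library.

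The suprachiasmatic nucleus, the master clock that lies near the PVH, has strong clock gene rhythms, so its markers were read in the same libraries. Of these markers 6 of 10 lay higher and 4 lower. Their summed level overlapped between the groups, at 124 to 184 CPM in Cre-labelled and 127 to 179 CPM in GFP-labelled libraries. Rgs16 (26.4 to 55.1 CPM over all libraries) and Zfhx3 (54.7 to 68.8 CPM) were its largest parts, so the sum says little about the neuropeptides. The defining neuropeptides were close to 0, with Vip at 0.155 to 0.467 FPKM against 0.0993 to 0.248 FPKM and Nms at 0.387 to 1.16 FPKM against 0.404 to 0.522 FPKM (edgeR adjusted p = 0.525 and 0.424). For both, Cre-labelled libraries 1 and 3 exceeded every GFP-labelled library, and Cre-labelled library 2 did not. The log2 differences were 0.71 ± 0.51 for Vip, 0.82 ± 0.47 for Nms and -0.84 ± 0.71 for Prok2 (SE). These estimates were too imprecise to tell whether the markers moved with the groups. Neuronal genes lay lower in 8 of 8 cases, summing to 4255 to 4494 CPM in Cre-labelled and 4888 to 4998 CPM in GFP-labelled libraries. PVH markers lay lower in 7 of 8 cases (364 to 708 CPM against 418 to 913 CPM) and thalamic markers in 8 of 8 (520 to 834 CPM against 691 to 995 CPM). Ependymal markers lay higher in 4 of 4 cases, summing to 137 to 191 CPM against 101 to 112 CPM. Choroid plexus genes had higher log2 estimates in 4 of 4 cases, with sums of 9.38, 41.8 and 52.6 CPM in Cre-labelled libraries 1 to 3. GFP-labelled libraries held 7.25 to 10.9 CPM, so Cre-labelled library 1 lay within their range. The rise was confined to Cre-labelled libraries 2 and 3, which also held the kidney transcripts. Astrocyte markers lay higher in 6 of 7 cases, at 3208 to 3495 CPM against 3103 to 3338 CPM. Markers of oligodendrocytes (2 of 6 higher), microglia (1 of 6) and endothelium (3 of 5) overlapped between the groups in their sums, as did 3 pituitary hormone genes. The parts of these shifts in the clock gene differences were not tested.

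Leaving out the 3 libraries with kidney, muscle or testis transcripts left Cre-labelled library 1 against GFP-labelled libraries 2 and 3, a fit in which the lone library is assumed to vary like the others. Of the 3 pituitary hormone genes, 1 lay higher and 2 lower with all 6 libraries. Their sum was highest in libraries kept for this fit, at 32.01 CPM for Cre-labelled library 1 and 34.6 CPM for GFP-labelled library 2. The source of these transcripts was not tested. In this fit Per2 was higher by 0.47 and Nr1d1 lower with a log2 difference of -0.40 (edgeR adjusted p = 0.0336 and 0.0101), and Dbp stood at -0.34 (edgeR adjusted p = 0.0573). Per3 was at 0.18, Per1 turned to -0.26 and Clock to 0.033, with edgeR adjusted p of 0.297, 0.105 and 0.903. There 1059 genes passed in all, so that calls were far more common than with 6 libraries.

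**Figure D5:**
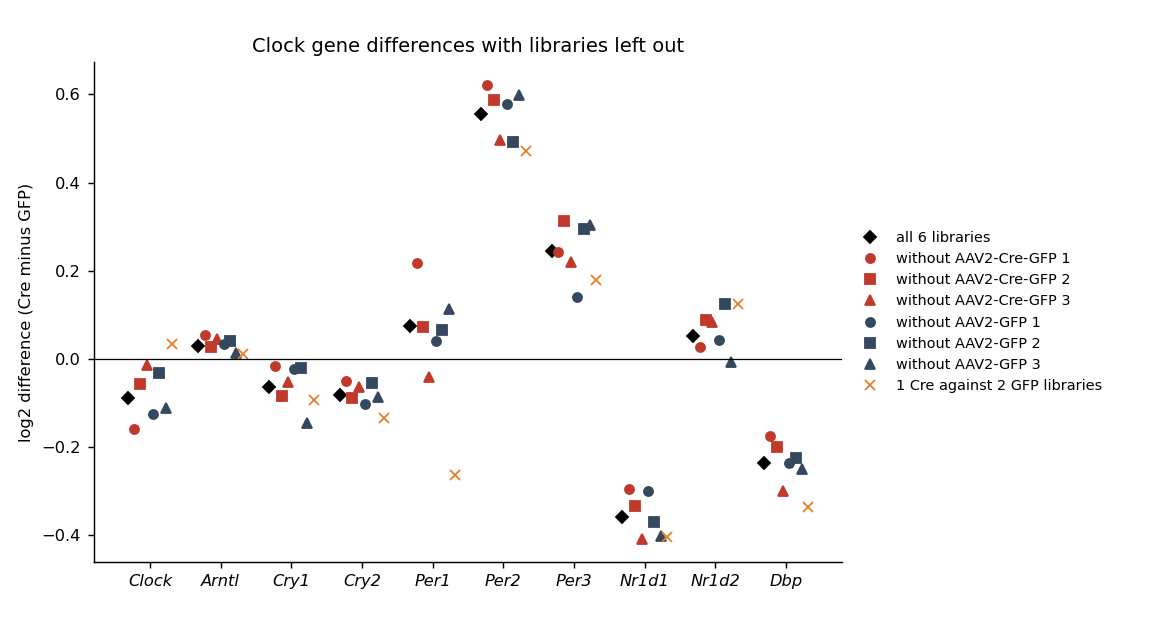
Log2 difference (Cre-labelled minus GFP-labelled) of each clock gene from edgeR with all 6 libraries (black), with each library left out in turn (red for Cre-labelled, dark blue for GFP-labelled, by symbol) and with 1 Cre-labelled against 2 GFP-labelled libraries (orange crosses). Per2 stays between 0.47 and 0.62 and Nr1d1 between -0.41 and -0.29, while Per1 lies on both sides of 0.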

How the data were processed

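Poly(A) RNA of PVH tissue was made into stranded (dUTP) libraries and sequenced as read pairs, per the labels' protocols, with molecular identifiers in the adapters; whether counting used strand or identifiers is not stated. The submitters' processing notes name cutadapt, HISAT2 and StringTie and the build mm9; of 35024 gene identifiers shared with GENCODE M21, 91.4% have identical positions, all 10 members among them, so coordinates are given as GRCm38. The counts deposited by the authors are whole numbers per gene with no normalization, and their deposited FPKM are scaled for length and depth. All 6 libraries, 3 per group, entered 1 fit: edgeR 4.0.16's two-sided quasi-likelihood test (R 4.3.3) of counts with TMM factors, filterByExpr (minimum count 10), Benjamini-Hochberg adjustment over 20865 genes and a threshold of 0.05. Normalised counts are TMM CPM; summed CPM use library totals. Standard errors come from the F statistic. The test was tested on simulated data. The common biological coefficient of variation was 27.1%, and members had 840 to 7311 counts per library, so precision rests on library-to-library spread. Every pair of libraries differed beyond counting noise (chi-square per gene of at least 11.4). DESeq2 1.42.0, limma 3.58.1 on log2(FPKM + 0.5), other scalings and filters, a replicate block and left-out libraries were alternatives.

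The members, lists and tests were chosen with earlier results of these data known. Named were all members, Ruvbl2, Sim1, Oxt, Avp, Crh and CT010467; 7 rhythmic relatives and the 4 smallest p of the further clock genes; the 2 smallest p of each inducible, temperature and suprachiasmatic list; overlapping genes were added. Further genes of the glucocorticoid and suprachiasmatic lists were named to show the spread within those lists. Ratios were chosen after their values were seen.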

Additional observations from a re-analysis of the deposited data

How the results depend on the processing

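Across 19 alternatives each, Per2 and Per3 stayed higher and Nr1d1, Dbp, Cry1 and Cry2 lower, with Per2 between 0.47 and 0.62 and Nr1d1 between -0.41 and -0.29; Arntl kept its sign too, and Clock, Per1 and Nr1d2 did not. Clock turned to 0.033 and Per1 to -0.26 with the 3 libraries holding other-organ transcripts left out, Per1 ran from -0.042 (lacking Cre-labelled library 3) to 0.22 with a library left out, and Nr1d2 from -0.0080 (lacking GFP-labelled library 3) to 0.12; the cause was not tested. Clock members past an adjusted p of 0.05 numbered 0 in the edgeR test and 2 with DESeq2 (Per2 and Nr1d1); they numbered 0 to 1 with a library left out and 2 with the 3 libraries left out. Over all genes the count was 2, against 1322 with DESeq2, 9 with median-ratio and 9 with upper-quartile factors, 1 with library totals, 1 without a filter, 22 with a robust fit, 1059 with the 3 libraries left out, 1 without ribosomal and mitochondrial RNA, and, in limma on FPKM, 15 with a pseudocount of 0.1 and 1 without a filter; with a library left out it ran from 1 to 296, the highest without Cre-labelled library 1. The difference of the arms, 0.094, was -0.033 when the day arm lacked Per1 and Per2, and ran from 0.0155 (lacking Cre-labelled library 3) to 0.144 (lacking Cre-labelled library 1) with a library left out.

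The replicate numbers did not pair the libraries: deviations of same-numbered libraries from their group means correlated at -0.0435, 0.0121 and -0.0216 across genes. With the number as a replicate block, 3 genes and 0 clock members passed, with Per2 at 0.56 (edgeR adjusted p = 0.154). With 3 libraries a group, differences as small as those of Clock, Cry1 and Nr1d2 could not be told from 0.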
